A study of Homo sapiens with 6 samples.

Results

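NF-kB is a family of dimeric transcription factors held inactive in the cytoplasm by IkB proteins. Cytokine receptors signal through TRAF and cIAP adaptors to the IkB kinase complex, which marks IkB for degradation, and the freed dimers enter the nucleus. Their targets include chemokines, adhesion molecules and the genes of their own inhibitors, and in the liver NF-kB acts with IL-6 signalling to induce acute phase proteins. The genes described here are 39 members of this network, sorted by role into NF-kB subunits, inhibitors, IkB kinases, TRAF and cIAP adaptors, chemokines, other targets, the IL-6 axis and acute phase proteins. A probe set, the group of array probes that reads out a transcript, was taken as a member where its platform symbol was exactly 1 of these genes, with IL8 read as CXCL8. That gave 73 of 54675 probe sets, for 35 of the 39 genes. SAA1, SAA2, TRAF2 and BIRC3 had no such probe set, so their expression is not analysed here, and TRAF2 and BIRC3 enter the promoter search alone. A further 8 probe sets that list a member together with other genes were not used.

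The arrays came from Hep3B, an established human hepatocellular carcinoma line. The miR-17 TuD group (3 arrays) carried a lentiviral tough decoy (TuD), an RNA that sequesters microRNAs, here of the miR-17 family, and the NC TuD group (3 arrays) a control decoy. Per the labels' protocols, both lines were made alike, by 48 hours with virus (multiplicity of infection 5), puromycin at 1 µg/mL, and pooling of resistant colonies after 2 weeks. Each group is thus 1 pooled line, and the labels do not say whether the 3 samples were separate cultures, so p-values measure a spread that may be technical. A second code in the descriptions reads 72HR with PLUSDOX for miR-17 TuD and 72HR with NODOX for NC TuD. What it stands for was not stated, and it cannot be told apart from the decoy.

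The decoy is directed at the family of short RNAs below, shown because the labels name the groups by it. All 6 share the seed, bases 2 to 8, printed in capitals, with which a microRNA pairs to its targets (RefSeq mature sequences, GRCh38.p14).
hsa-miR-17-5p: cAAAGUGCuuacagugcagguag
hsa-miR-20a-5p: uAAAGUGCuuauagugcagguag
hsa-miR-20b-5p: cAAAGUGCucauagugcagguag
hsa-miR-93-5p: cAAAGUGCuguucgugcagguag
hsa-miR-106a-5p: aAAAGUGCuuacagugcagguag
hsa-miR-106b-5p: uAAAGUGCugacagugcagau

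All values are the authors' deposited log2 expression, and a positive difference on that scale means a higher level in miR-17 TuD than in NC TuD. The lowest deposited value, 2.12, is shared by all arrays and marks probe sets without measurable signal, while some probe sets repeat a higher value across arrays. Arrays correlated at r of at least 0.9989 within groups and at most 0.9984 between groups. Of 10 hepatocyte marker genes, 9 had a probe set and all 9 were above the filter on low values, with ALB, which encodes serum albumin, at 15.99 ± 0.033 in miR-17 TuD and 16.20 ± 0.036 in NC TuD (SD, n = 3 each). Of 4 measured leukocyte markers, PTPRC and CD3E were within 0.1 of the lowest value on all arrays, CD14 stood at 3.71 in miR-17 TuD and 3.85 in NC TuD, and LYZ, which encodes lysozyme, rose (7.17 ± 0.14 in miR-17 TuD and 6.58 ± 0.061 in NC TuD, adjusted p = 0.0306 in limma). Their summed signal was 7.26 to 7.46 in miR-17 TuD and 6.86 to 6.95 in NC TuD on the log2 scale. Of 4 endothelial markers, CDH5, VWF and KDR were within 0.1 of the lowest value and PECAM1 was at 2.43 on all arrays. Of 5 fibroblast or stellate cell markers, COL3A1 and DCN were within 0.1 of the lowest value, and none passed the test. COL1A1 stood at 12.79 ± 0.31 in miR-17 TuD and 12.45 ± 0.033 in NC TuD, COL1A2 at 9.35 ± 0.32 in miR-17 TuD and 8.91 ± 0.052 in NC TuD, and PDGFRB at 3.78 ± 0.068 in miR-17 TuD and 3.86 ± 0.085 in NC TuD. The part of these markers in the results was not tested. In a bulk sample, fewer cells of a type and less RNA per cell cannot be told apart.

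Of the 73 member probe sets, 61 passed the filter on low values and were tested with limma over 32768 probe sets. With Benjamini-Hochberg adjustment, 9 of the 61 passed the threshold of 0.05 (14.8%), against 5.83% of all probe sets tested. Of these 9, 3 were higher and 6 lower, against 3.35% higher and 2.48% lower over all. The groups did not overlap in 21 of the 61, against 27.3% of all probe sets. Among probe sets with a mean level above 7, 8 of 44 member probe sets passed, against 9.57% of all such probe sets. The 9 belong to 8 genes. The inhibitor NKIRAS1 and the chemokine CXCL8 rose, and probe sets of the inhibitors NFKBIA and TNFAIP3, the subunit gene REL, the adaptor BIRC2, the chemokine CCL20 and the receptor subunit IL6ST fell. With each gene represented by its brightest probe set, 5 of 34 tested genes passed (2 higher, 3 lower), against 7.96% of 13949 genes (4.82% higher and 3.14% lower). The groups did not overlap in 16 of the 34 genes (47.1%, with 4 higher and 12 lower in miR-17 TuD), against 33.0% of all genes (18.3% higher and 14.7% lower). The median difference was -0.047 over the 34 genes and 0.00060 over all genes, and the median absolute difference 0.085 over the 34 genes and 0.079 over all genes. Members were chosen with earlier results of these data known, so these shares describe the list and are no test.

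**Figure D1:**
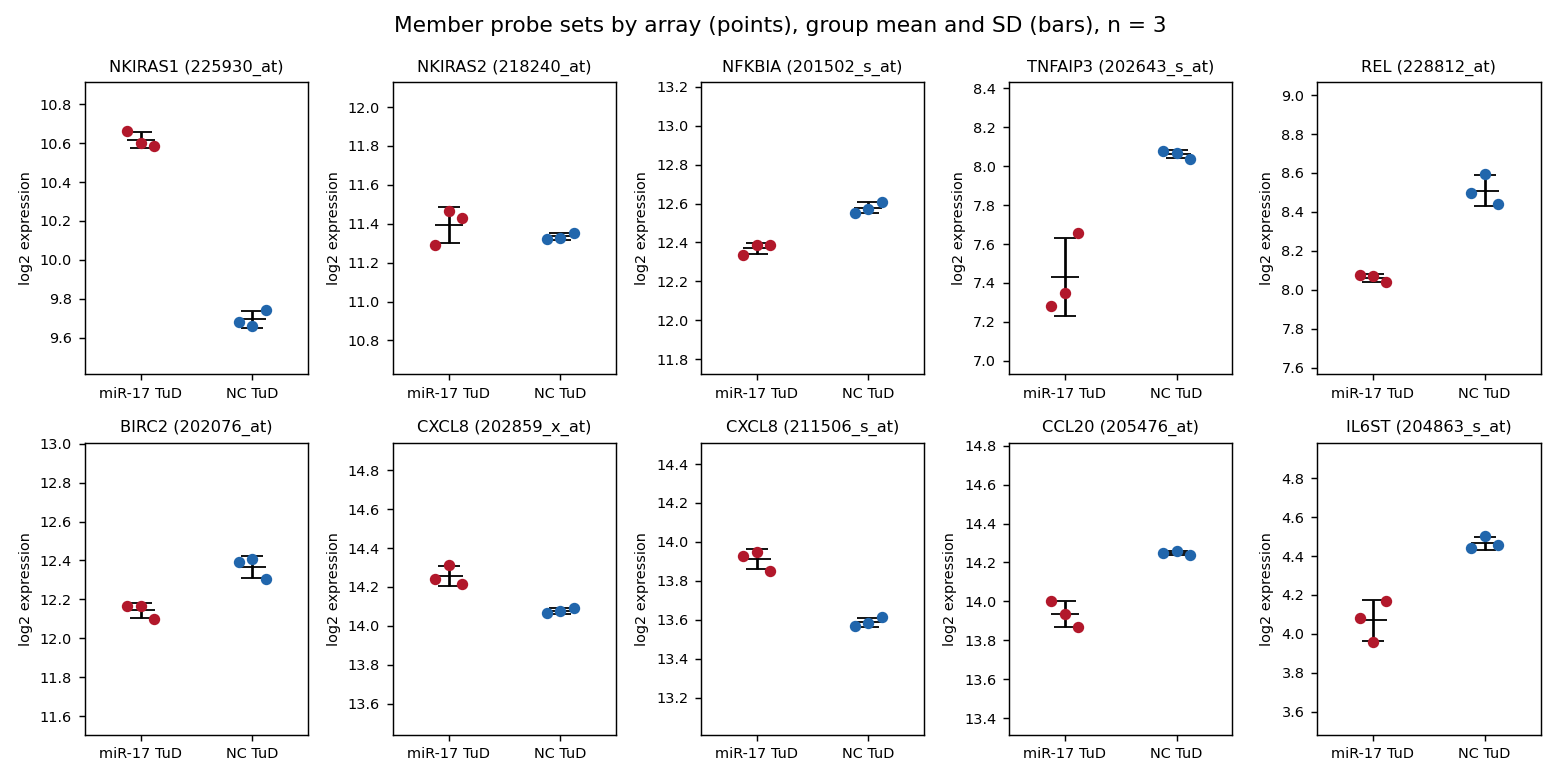
Log2 expression (vertical axes, each spanning the same range) of the 9 member probe sets past the threshold and of NKIRAS2, by array (points), with the group mean and SD (bars, n = 3), for miR-17 TuD on the left and NC TuD on the right of each panel. NKIRAS1 stood at 10.58 to 10.66 in miR-17 TuD and 9.66 to 9.74 in NC TuD, while the NKIRAS2 groups overlapped.

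Among the inhibitors, NKIRAS1 rose and NFKBIA fell, and 1 of the TNFAIP3 probe sets fell. NKIRAS1 encodes a small Ras-like protein that binds the IkB beta protein and slows its degradation. It measured 10.66, 10.60 and 10.58 in the miR-17 TuD arrays and 9.68, 9.66 and 9.74 in the NC TuD arrays. Every miR-17 TuD array lay above every NC TuD array, and the gap between the groups was far wider than the spread within either. The means were 10.62 ± 0.042 in miR-17 TuD and 9.69 ± 0.043 in NC TuD (SD, n = 3 each), a rise of 1.89-fold (log2 difference 0.92, SE 0.033, adjusted p = 0.00613 in limma). By size of rise NKIRAS1 ranked 25 of 13949 genes. The call held in all 6 fits that left out 1 array, with differences of 0.90 to 0.95 and adjusted p of 0.019 to 0.0403. It ended with a block for the replicate number (adjusted p = 0.0541 in limma), a fit in which no probe set passed. The gene had 1 probe set, so there is no other probe set of the gene to set against it.

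NKIRAS2 encodes the paralog of NKIRAS1, which acts on IkB proteins in the same way. It measured 11.29, 11.46 and 11.43 in miR-17 TuD and 11.32, 11.33 and 11.35 in NC TuD. The groups overlapped. Its difference was 0.059, with a 95% interval from -0.073 to 0.19 (adjusted p = 0.565 in limma), and on its other probe set 0.032 (-0.056 to 0.12). The upper ends of both intervals lie below the lower end of the NKIRAS1 interval, 0.84.

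NFKBIA encodes IkB alpha, the main cytoplasmic inhibitor and itself an NF-kB target. It measured 12.34, 12.39 and 12.39 in miR-17 TuD and 12.55, 12.57 and 12.61 in NC TuD. The groups did not overlap, and the means were 12.37 ± 0.029 in miR-17 TuD and 12.58 ± 0.029 in NC TuD (SD, n = 3 each). The fall was 1.16-fold (-0.21, SE 0.022, adjusted p = 0.0201 in limma). The other, dim NFKBIA probe set stood near the lowest value, at 2.27 in miR-17 TuD and 2.29 in NC TuD, and differed by -0.025 (adjusted p = 0.522). The NFKBIA call held without miR-17 TuD replicate 1 and ended without any other single array (adjusted p up to 0.0914), with the difference between -0.22 and -0.19 in these fits. It also ended with no filter (adjusted p = 0.0512) and with s_at probe sets left out, where the dim probe set stands for the gene.

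TNFAIP3 encodes a ubiquitin-editing enzyme that shuts off signalling to the IkB kinases. On its dimmer probe set it measured 7.28, 7.35 and 7.66 in miR-17 TuD and 8.08, 8.07 and 8.04 in NC TuD. On the brighter probe set it measured 8.59, 8.89 and 8.94 in miR-17 TuD and 9.24, 9.38 and 9.38 in NC TuD. All miR-17 TuD arrays lay below all NC TuD arrays on both probe sets. The miR-17 TuD arrays were spread more widely, with an SD of 0.2 in miR-17 TuD and 0.021 in NC TuD on the dimmer probe set. That probe set fell 1.55-fold (-0.63, SE 0.11, adjusted p = 0.0479 in limma), and the brighter one differed by -0.52 (SE 0.11, adjusted p = 0.0699). The call on the dimmer probe set held without miR-17 TuD replicate 3, where the difference was -0.75 (adjusted p = 0.019), and ended without any other single array (adjusted p up to 0.166), in the unfiltered fit (adjusted p = 0.113) and with a trend and robust variance model (adjusted p = 0.0546). The brighter probe set, or the average of both in the setting that averages probe sets, passed in 5 of 8 other alternatives. These leave out the replicate block, where the brighter probe set did not pass (adjusted p = 0.0758 in limma).

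The other inhibitors showed no difference past the threshold. NFKBIB, which encodes IkB beta, the partner of the NKIRAS proteins, stood at 8.56 ± 0.1 in miR-17 TuD and 8.56 ± 0.036 in NC TuD, with a 95% interval of the difference from -0.15 to 0.15. TNIP1, which encodes an adaptor that brings the TNFAIP3 protein to its substrates, stood at 10.99 ± 0.048 in miR-17 TuD and 10.99 ± 0.037 in NC TuD, with an interval from -0.086 to 0.087. NFKBIE, which encodes IkB epsilon, differed by -0.070 (adjusted p = 0.213 in limma). Of the 7 inhibitors, all measured, 1 rose and 1 fell on the brightest probe set, and their median difference was 0.00010.

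Of the 5 NF-kB subunit genes, REL fell on 1 of 4 tested probe sets, and the others did not pass. REL encodes c-Rel, a subunit with a transactivation domain. On that probe set, the second brightest, it measured 8.08, 8.07 and 8.04 in miR-17 TuD and 8.50, 8.59 and 8.44 in NC TuD. The groups lay apart, and the difference was -0.45 (SE 0.044, 1.36-fold lower, adjusted p = 0.0176 in limma). The brightest REL probe set measured 8.11, 8.36 and 8.04 in miR-17 TuD and 8.55, 8.67 and 8.56 in NC TuD. It also had no overlap and differed by a like amount, -0.42, with a wider error (SE 0.097, adjusted p = 0.0842). On the remaining tested probe sets the groups overlapped, with differences of -0.26 and -0.19. The call on the second brightest held without NC TuD replicate 2 or 3 and ended without any other single array (adjusted p up to 0.0749), and leaving out miR-17 TuD replicate 2 brought the brightest probe set past the threshold (-0.52, adjusted p = 0.0491) and in the 60th percentile fit (adjusted p = 0.0326).

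RELA encodes the main transactivating subunit. It measured 11.71, 11.82 and 11.80 in miR-17 TuD and 11.55, 11.62 and 11.57 in NC TuD. The groups did not overlap, but the difference of 0.19 (SE 0.039, adjusted p = 0.0651 in limma) missed the threshold, and the other RELA probe set differed by 0.062. RELA passed in the 60th percentile fit, which keeps brighter probe sets (adjusted p = 0.0372), and with median centring (0.22, adjusted p = 0.0277), 1 probe set a gene in the fit (adjusted p = 0.0457) and averaged probe sets (0.13, adjusted p = 0.0121).

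NFKB1 encodes the precursor of a DNA-binding subunit without transactivation domain. It measured 9.95, 9.89 and 9.88 in miR-17 TuD and 9.85, 9.88 and 9.86 in NC TuD, a difference of 0.041 (adjusted p = 0.393 in limma). The groups overlapped in this gene. NFKB2, the precursor of the corresponding subunit of the non-canonical pathway, measured 7.67, 7.58 and 7.45 in miR-17 TuD and 7.74, 7.67 and 7.84 in NC TuD. Its difference was -0.19 (adjusted p = 0.244 in limma), and 0.0074 on a dimmer probe set where arrays of both groups share a value. RELB, its usual dimer partner, measured 7.86, 7.92 and 7.86 in miR-17 TuD and 7.87, 7.78 and 7.81 in NC TuD, a difference of 0.060 (adjusted p = 0.357). Neither of these genes passed, and the NFKB2 groups lay apart on the brighter probe set only.

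Among the kinases and adaptors, BIRC2 fell and no other measured gene passed. BIRC2 encodes cIAP1, a ubiquitin ligase recruited to TNF receptors by TRAF proteins. It measured 12.17, 12.16 and 12.10 in miR-17 TuD and 12.39, 12.41 and 12.30 in NC TuD. The groups did not overlap, and the fall was 1.17-fold (-0.22, SE 0.036, adjusted p = 0.0435 in limma). The BIRC2 call ended whichever of the 6 arrays was left out (adjusted p from 0.0638 to 0.143, differences from -0.25 to -0.20). It also ended with no filter, with array weights, and with s_at and x_at probe sets left out. Probe sets of these kinds can bind transcripts of more than 1 gene. The BIRC2 probe set is of neither kind and stayed in that fit (adjusted p = 0.0528 in limma). The called probe sets of CXCL8, TNFAIP3, NFKBIA and IL6ST are of these kinds and were outside it. The kinase genes CHUK and IKBKB differed by -0.017 (95% interval -0.21 to 0.17) and 0.030 (-0.15 to 0.21). The other IKBKB probe sets differed by 0.019 and -0.11 and did not pass. IKBKG, the regulatory subunit of the kinase complex, was higher in every miR-17 TuD array on both probe sets, by 0.16 (adjusted p = 0.236) and 0.39 (adjusted p = 0.22), and did not pass. The adaptor genes TRAF3 (0.051, and 0.19 on its other probe set) and TRAF6 (-0.066, and -0.16 on its other probe set) did not pass either.

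**Figure D2:**
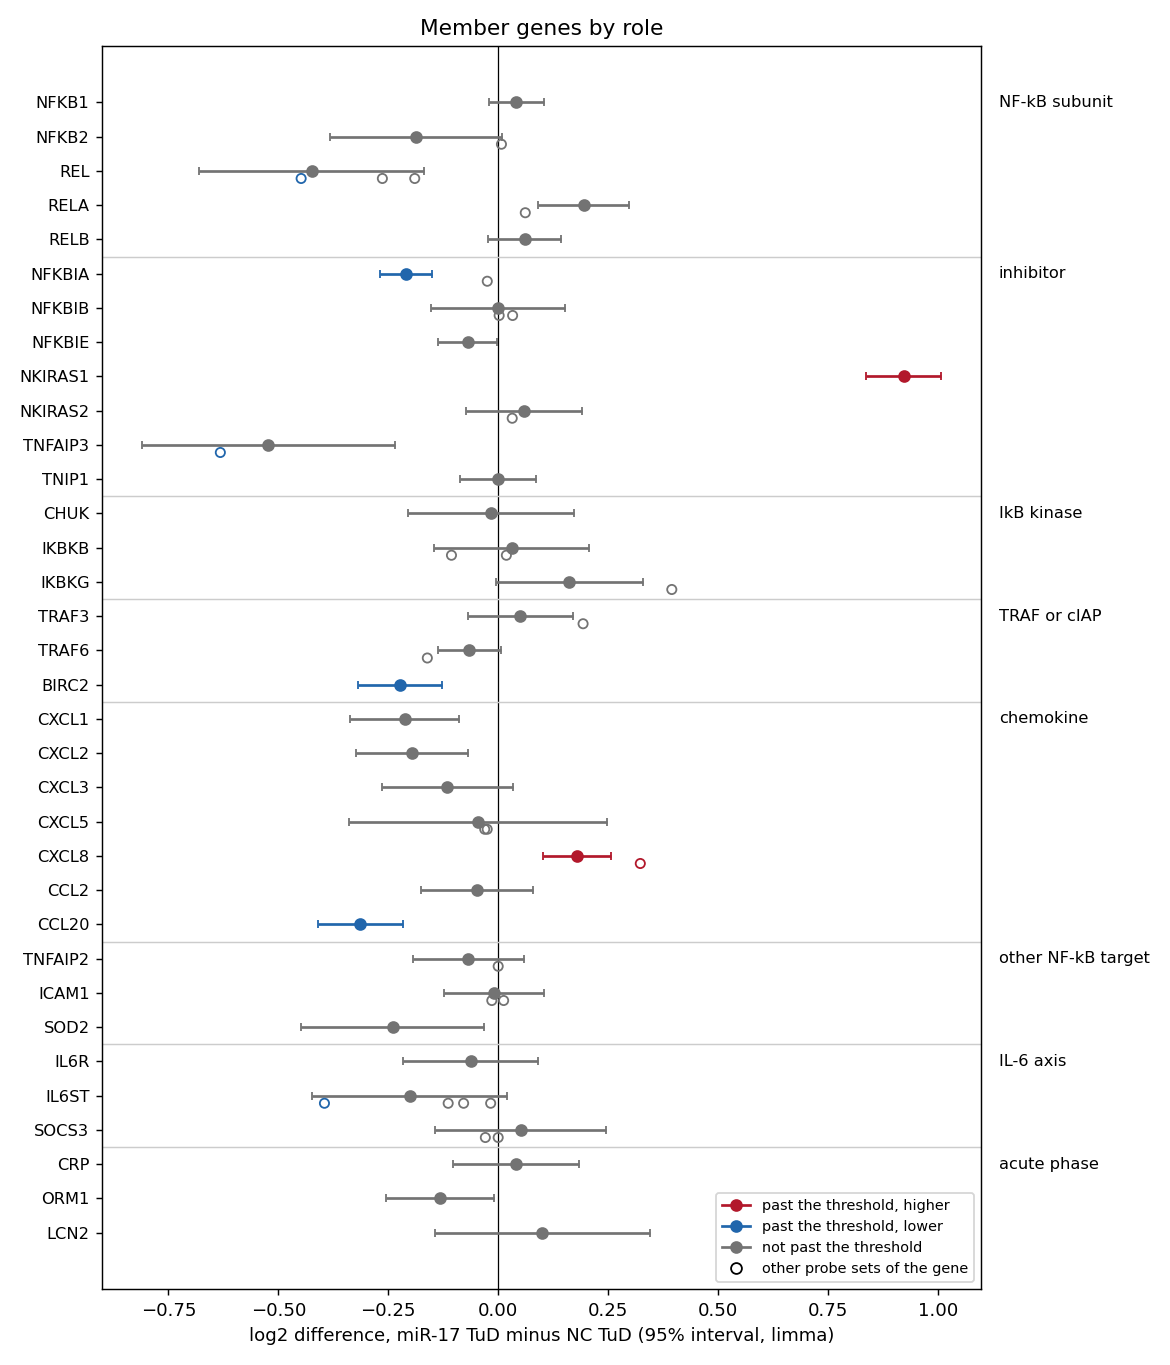
Log2 difference of the 34 tested member genes, miR-17 TuD minus NC TuD (horizontal axis), by role; filled points are the brightest probe set of a gene with its 95% interval from limma, and open points its other tested probe sets. NKIRAS1 lies at 0.92, far to the right of all other members, while CXCL8 is the other gene past the threshold on the higher side.

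The chemokines did not move in 1 direction. CXCL8 rose, CCL20 fell, and the other 5 did not pass. CXCL8, a neutrophil attractant, was measured by a pair of probe sets. On the brighter it measured 14.24, 14.32 and 14.21 in miR-17 TuD and 14.06, 14.07 and 14.09 in NC TuD. On the dimmer it measured 13.93, 13.95 and 13.85 in miR-17 TuD and 13.57, 13.58 and 13.61 in NC TuD. Both lay wholly above NC TuD, with differences of 0.18 (SE 0.03, 1.13-fold, adjusted p = 0.0442 in limma) and 0.32 (SE 0.031, 1.25-fold, adjusted p = 0.0168). These levels lie near the upper end of the scale, whose highest deposited value is 16.32. The call on the brighter held without miR-17 TuD replicate 2 alone and ended without any other single array (adjusted p up to 0.157), as in the unfiltered fit (adjusted p = 0.103). The call on the dimmer held without miR-17 TuD replicate 2 or 3 and ended without any other single array (up to 0.0802).

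CCL20 encodes an attractant of dendritic cells and Th17-type T cells. It measured 14.00, 13.93 and 13.87 in miR-17 TuD and 14.25, 14.26 and 14.24 in NC TuD. All miR-17 TuD arrays were lower, and the NC TuD arrays were nearly equal. As with CXCL8, the levels lie near the upper end of the scale. The fall was 1.24-fold (-0.31, SE 0.036, adjusted p = 0.0231 in limma). Its call held without miR-17 TuD replicate 1 or 3 and ended without replicate 2 of that group or any NC TuD array (adjusted p up to 0.101), as in the unfiltered fit (adjusted p = 0.0584).

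CXCL1, CXCL2 and CXCL3 are closely related neutrophil attractants. CXCL1 measured 12.50, 12.63 and 12.65 in miR-17 TuD and 12.77, 12.81 and 12.84 in NC TuD (difference -0.21, adjusted p = 0.0789 in limma). CXCL2 measured 8.50, 8.55 and 8.55 in miR-17 TuD and 8.64, 8.73 and 8.81 in NC TuD (-0.20, adjusted p = 0.0992). In both genes the groups lay apart with miR-17 TuD lower, short of the threshold. CXCL3 overlapped and differed by -0.12 (adjusted p = 0.328). CXCL5, a related attractant, differed by -0.046 with an interval from -0.34 to 0.25. In CXCL5 the 3 miR-17 TuD arrays spread from 11.40 to 11.80 around an NC TuD range of 11.62 to 11.69. CCL2, a monocyte attractant, stood near the lowest value in both groups, at 2.14 in miR-17 TuD and 2.18 in NC TuD. CXCL1 passed with quantile normalization (-0.23, adjusted p = 0.0494), with median centring (-0.19, adjusted p = 0.0496) and in the 60th percentile fit (adjusted p = 0.0408).

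Promoter sequence was searched for NF-kB motifs, since most of these genes are known NF-kB targets. From RefSeq (GRCh38.p14), 33 of the 39 members had a promoter of 250 bases before to 50 bases after the annotated start. Searched on both strands were the 10-base motif known as the NF-kB decamer consensus and the 9-base motif GGAATTTCC, which lay inside a decamer match in every member that held it except CXCL8 and ICAM1. At least 1 of these was present in 19 of the 33 member genes (57.6%), and in 13.5% of all 27305 genes with a promoter. The decamer was in 17 members (51.5%), against 13.3% of all genes, and the 9-base motif in 10 members (30.3%), against 0.56% of all genes. All 6 chemokine genes with a promoter in the table held a match, as did 4 of 6 inhibitor genes and 3 of 4 subunit genes, but neither NKIRAS1 nor NKIRAS2. The members were listed as parts of this pathway, so the share describes the list and is no test.

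The matches of the chemokines, and of NFKBIA, TNFAIP3 and REL as NF-kB regulators with a probe set that fell, are printed as 30-base windows. They run 5′ to 3′ on the strand of the gene, with matches in capitals. Of the genes printed, CXCL8 alone was higher in miR-17 TuD, and the others had negative differences on the brightest probe set. NFKBIA, TNFAIP3 and REL were printed because a probe set fell, so their direction follows from the choice and is no result.
CXCL1, chr4:73869304-73869333, plus strand: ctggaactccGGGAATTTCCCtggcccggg
CXCL2, chr4:74099254-74099283, minus strand: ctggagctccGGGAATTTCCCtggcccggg
CXCL3, chr4:74038749-74038778, minus strand: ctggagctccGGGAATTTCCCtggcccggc
CXCL5, chr4:73998749-73998778, minus strand: catgagttcaGGGAATTTCCCcagcatccc
CXCL8, chr4:73740467-73740496, plus strand: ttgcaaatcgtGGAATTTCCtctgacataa
CCL20, chr2:227813753-227813782, plus strand: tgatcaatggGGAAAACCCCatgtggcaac
NFKBIA, chr14:35404811-35404840, minus strand: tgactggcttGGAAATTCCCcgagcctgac
TNFAIP3, chr6:137867188-137867217, plus strand: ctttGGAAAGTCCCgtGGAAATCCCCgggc
REL, chr2:60881517-60881546, plus strand: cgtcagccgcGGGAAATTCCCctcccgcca

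The CXCL1, CXCL2, CXCL3 and CXCL5 windows hold the same capitals, and these genes differed by -0.21, -0.20, -0.12 and -0.046. Members with a match but no printed window differed in both directions on the brightest probe set, and none passed there. NFKB2, IL6ST and ICAM1 differed by -0.19, -0.20 and -0.010. NFKB1, TRAF3, LCN2, NFKBIB and TNIP1 differed by 0.041, 0.051, 0.10, 0.0001 and 0.0003. BIRC3 had no probe set of its own, and IL6 was not tested. CXCL8, which rose, holds the 9-base motif without a decamer match, as does ICAM1, which did not pass on any probe set. A match is a description of the letters and does not show binding in these cells.

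**Figure D3:**
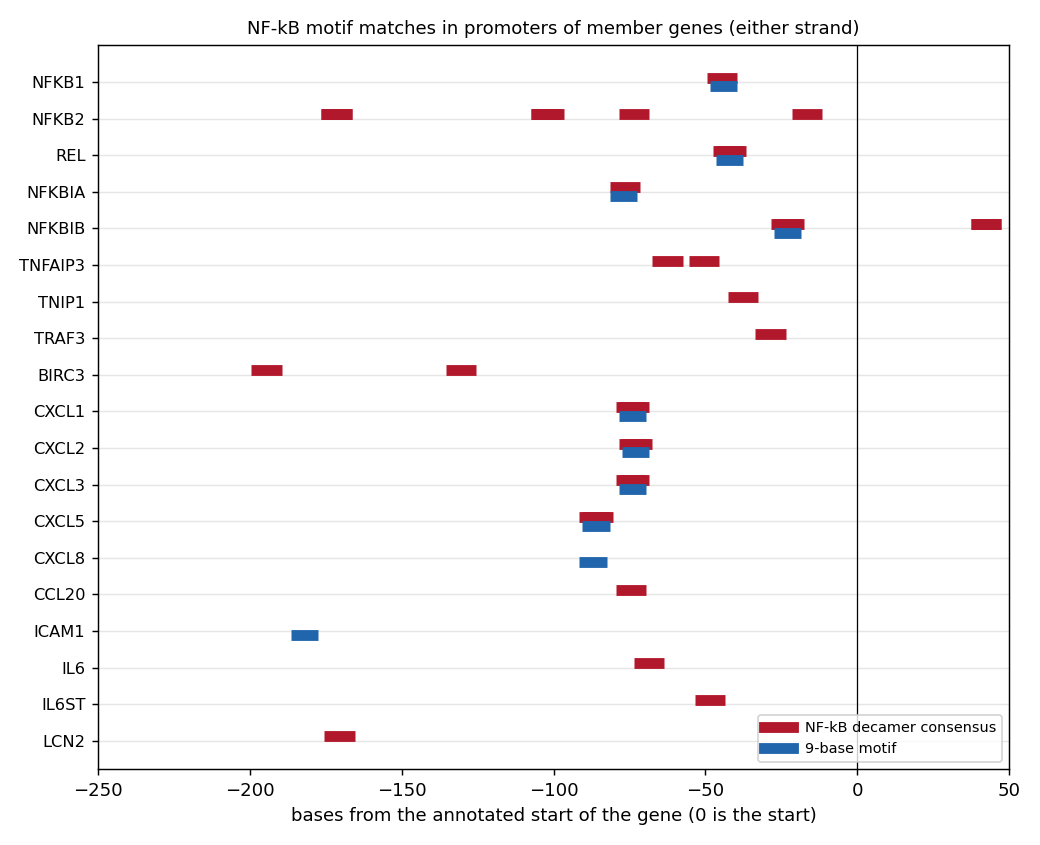
Positions of NF-kB decamer consensus matches (red) and 9-base motif matches (blue) on either strand in the promoters of the 19 member genes with a match (rows); the horizontal axis is the distance in bases from the annotated start, and genes with several annotated starts have their matches drawn together. In the 6 chemokine genes shown all matches lie from -91 to -68.

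Among other NF-kB targets no gene passed. ICAM1, an adhesion molecule for leukocytes, was close to equal on 3 probe sets, with differences of -0.010, 0.012 and -0.015 and 95% intervals that together run from -0.12 to 0.10. TNFAIP2, a TNF-induced gene, differed by -0.068 (adjusted p = 0.489 in limma). SOD2, the mitochondrial superoxide dismutase, measured 8.89, 8.70 and 8.96 in miR-17 TuD and 9.12, 9.13 and 9.01 in NC TuD. Its groups lay apart with miR-17 TuD lower, and the difference of -0.24 did not pass (SE 0.079, adjusted p = 0.178). This SOD2 value comes from the single SOD2 probe set with no other symbol. A further 4 probe sets that list SOD2 with other genes were not used.

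In the IL-6 axis the ligand gene IL6 was at the lowest value on all 6 arrays and was not tested. IL6ST, the receptor subunit that transduces the signal of IL-6 family cytokines, fell on 1 of 5 tested probe sets. On that probe set it measured 4.08, 3.96 and 4.17 in miR-17 TuD and 4.44, 4.50 and 4.46 in NC TuD (difference -0.40, SE 0.06, adjusted p = 0.0376 in limma). This is a dim probe set. On the brightest, the gene measured 11.77, 11.77 and 11.55 in miR-17 TuD and 11.95, 11.95 and 11.79 in NC TuD, with miR-17 TuD lower throughout and a difference of -0.20 that did not pass (adjusted p = 0.26). The call on the dim probe set held without miR-17 TuD replicate 3 and ended without any other single array (adjusted p up to 0.141), as in the unfiltered fit (adjusted p = 0.0908). IL6R, the ligand-binding receptor, stood at 5.77 ± 0 in miR-17 TuD and 5.83 ± 0.11 in NC TuD, with 5 of the arrays at one shared value. SOCS3, the feedback inhibitor of this pathway, stood at 4.30 ± 0.13 in miR-17 TuD and 4.25 ± 0.044 in NC TuD, with 3 of the 6 arrays at one shared value. Its other tested probe sets read one value on all 6 arrays or on 5 of them, so changes of SOCS3 may be hidden.

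The acute phase genes showed no call. ORM1, which encodes the plasma protein orosomucoid, measured 13.24, 13.38 and 13.36 in miR-17 TuD and 13.47, 13.42 and 13.49 in NC TuD. All miR-17 TuD arrays were lower, and the difference of -0.13 (SE 0.047, adjusted p = 0.2 in limma) did not pass. CRP, the C-reactive protein gene, stood close to the lowest value, at 2.51 ± 0.1 in miR-17 TuD and 2.47 ± 0.0057 in NC TuD. LCN2, an iron-siderophore binding protein, was at 2.27 on 5 arrays and at 2.57 in miR-17 TuD replicate 2. Beside these, 8 of the 9 measured hepatocyte markers fell, AFP and GPC3 among them, against 3.14% lower over all genes. The exception, SERPINA1, differed by 0.13 and did not pass (adjusted p = 0.122 in limma). The log2 of the summed signal of the 9 markers was 17.49 to 17.52 in miR-17 TuD and 17.69 to 17.73 in NC TuD. The part of these markers in the acute phase values was not tested.

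Of 104 further genes of the pathway, 94 had a probe set and 83 were tested, of which 7 rose and 6 fell, against 4.82% higher and 3.14% lower over all genes. This list too was chosen with earlier results known, so its counts are no test. Among receptors and their adaptors 2 of 17 rose and none fell. IRAK1, a kinase of the interleukin-1 and Toll-like receptor pathway, stood at 11.67 ± 0.041 in miR-17 TuD and 11.32 ± 0.016 in NC TuD (0.36, SE 0.024, adjusted p = 0.011 in limma). TNFRSF10B, a death receptor, stood at 12.61 ± 0.065 in miR-17 TuD and 12.23 ± 0.036 in NC TuD (0.38, SE 0.04, adjusted p = 0.0201). Among kinases and ubiquitin enzymes 2 of 29 rose and 2 fell. TAB3, an adaptor of the kinase upstream of the IkB kinases, stood at 9.93 ± 0.043 in miR-17 TuD and 10.46 ± 0.074 in NC TuD (-0.53, SE 0.046, adjusted p = 0.0153). MAP3K1, a MAP kinase kinase kinase, differed by -0.38 (adjusted p = 0.0439). OTULIN, a deubiquitinase of linear chains, and FBXW11, a ubiquitin ligase subunit that recognises phosphorylated IkB, rose by 0.25 (adjusted p = 0.0224) and 0.14 (adjusted p = 0.0246).

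None of the 8 tested nuclear IkB and cofactor genes passed. Of 15 other chemokines 5 were tested and 2 rose, CXCL12, the ligand of CXCR4, by 0.34 (12.85 ± 0.076 in miR-17 TuD and 12.51 ± 0.042 in NC TuD, adjusted p = 0.0317 in limma) and CX3CL1, a membrane-bound chemokine, by 0.32 (10.72 ± 0.064 in miR-17 TuD and 10.40 ± 0.007 in NC TuD, adjusted p = 0.0215). In IL-6 signalling 1 of 11 rose, the receptor-associated kinase JAK1, by 0.22 (12.54 ± 0.019 in miR-17 TuD and 12.32 ± 0.051 in NC TuD, adjusted p = 0.03). Of 13 other acute phase genes 4 fell and none rose. These were the fibrinogen chains FGB (-1.26), FGA (-0.73) and FGG (-0.67) and the heme carrier HPX (-0.82), with adjusted p of 0.0129, 0.0175, 0.0104 and 0.0258, and 8 of the 9 measured hepatocyte markers fell beside them. Of the 83, the number past the threshold was 8 without replicate 1 of miR-17 TuD, 5 without replicate 2 and 13 without replicate 3. It was 0 without replicate 1 of NC TuD, 1 without replicate 2 and 3 without replicate 3.

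**Figure D4:**
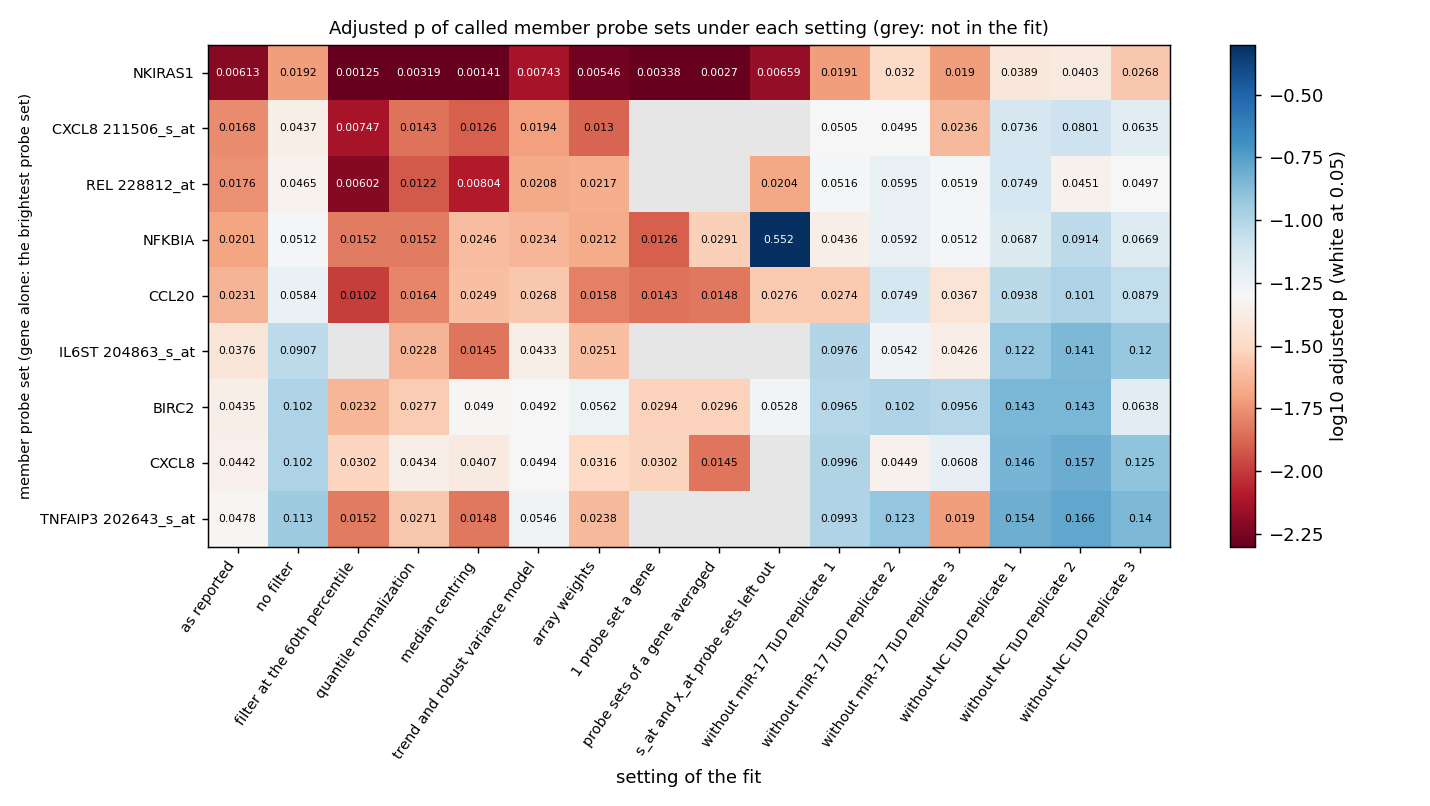
Adjusted p (printed in each cell, colour on a log10 scale with white at 0.05) of the 9 member probe sets past the threshold (rows) under the settings of the limma fit other than the replicate block (columns); grey cells are probe sets outside that fit. Rows with a gene alone show its brightest probe set, or its average or next brightest where the setting says so. NKIRAS1 lies under 0.05 in every column drawn, though no probe set passed with the replicate block, and each other row exceeds 0.05 in at least 1 of the fits that leave out an array.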

How the data were processed

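Total RNA of 6 Hep3B samples was hybridised to Affymetrix HG-U133 Plus 2 arrays. The deposited log2 values were made by the authors, with RMA and GCRMA named, without version or role, in the submitters' processing notes. Such processing sets a floor that hides changes of weakly expressed genes and can shrink small differences. No detection calls or scan dates were used here, and the number of arrays limits the precision.

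From these values, 62 control probe sets were left out, and probe sets with a mean over the 6 arrays at or under the 40th percentile (2.14) were filtered, leaving 32768. Of the non-control probe sets, 41091 have 1 symbol in GEO's platform annotation, 1801 several and 11721 none. Symbols were updated through Entrez identifiers to RefSeq of GRCh38.p14 (41043 matched). The comparison used lmFit and eBayes of limma 3.58.1 under R 4.3.3 (no trend, 2-sided, 4 residual and 0.63 prior degrees of freedom), with Benjamini-Hochberg adjustment over all probe sets tested, a threshold of 0.05 and 95% intervals that are not adjusted for multiple tests. A gene's own probe set was that with the highest mean. All members are named; other pathway genes were named where they passed, up to 4 for each part and direction. Promoter and microRNA sequences are RefSeq's.

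The members and lists were chosen with earlier results of these data known, and the motif search, the level of 7 and the neighbours of NKIRAS1 were added after the values were seen. On data simulated from the real means and SDs of the 32768 probe sets, with 200 probe sets above the median level changed in each of 10 simulations, 17.5% of changes of 0.25, 53.6% of 0.5 and 88.0% of 1 were recovered, and 7.22% of calls were false. In the data 1910 probe sets passed, far more than the 200 changed in a simulation, so these rates may not hold for the data. Alternatives varied the filter, scaling, variance model, array weights, probe set choice, replicate block and the arrays included.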

Additional observations from a re-analysis of the deposited data

How the results depend on the processing

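The number of probe sets past the threshold was 1910 of 32768, with 9 of 61 member probe sets and 13 of 83 other pathway genes. Without a filter these were 554, 3 and 5, and with the filter at the 60th percentile 3271, 12 and 18. Median centring gave 2930, 12 and 20, and leaving out s_at and x_at probe sets 836, 3 and 9. Quantile normalization, a trend and robust variance model, array weights, 1 probe set a gene and averaged probe sets gave 7 to 11 member probe sets or genes. Leaving out each array in turn gave 145 to 1155 probe sets, 1 to 5 member probe sets and 0 to 13 pathway genes, with 3 to 5 member probe sets where an miR-17 TuD array was left out and 1 to 2 where an NC TuD array was. The replicate block gave 0 calls in limma for all 3 counts, with 7488 probe sets, 18 member probe sets and 35 pathway genes at an unadjusted p under 0.05, and an adjusted p of 0.0541 for NKIRAS1. Same-numbered arrays had deviations correlated at 0.04, 0.10 and 0.11, and each of the 6 arrays correlated best with its own number, a hint from the data and not from the design. The samples were taken to share only a number. Signs turned only in genes that did not pass. TNIP1 turned to -0.012 with quantile normalization, CHUK and ICAM1 to 0.0053 and 0.012 with median centring, NFKBIB, TNIP1 and CHUK to -0.019, -0.010 and 0.0029 with array weights, IKBKB to -0.019 with averaged probe sets and NFKB2 to 0.0074 with s_at and x_at probe sets left out. Leaving out 1 array moved NFKBIB between -0.052 and 0.049, TNIP1 between -0.026 and 0.020, CHUK between -0.071 and 0.055, IKBKB between -0.036 and 0.066, CXCL5 between -0.14 and 0.065, CCL2 between -0.074 and 0.0033, ICAM1 between -0.048 and 0.016, SOCS3 between -0.024 and 0.089, and CRP between -0.018 and 0.070. The cause of these changes was not tested. Signal near the lowest value limits what IL6, CCL2, CRP and LCN2 can show. Values repeated across arrays limit what SOCS3, IL6R and dim probe sets of NFKB2, REL and TNFAIP2 can.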

Other observations

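In RefSeq, the span of NKIRAS1 overlaps those of the protein-coding genes UBE2E1, RPL15 and NR1D2. UBE2E1, a ubiquitin-conjugating enzyme, stood at 14.93 ± 0.0078 in miR-17 TuD and 14.98 ± 0.024 in NC TuD (SD, n = 3 each, difference -0.055, adjusted p = 0.112 in limma). NR1D2, a nuclear receptor of the circadian clock, stood at 10.32 ± 0.2 in miR-17 TuD and 10.43 ± 0.039 in NC TuD (-0.11, adjusted p = 0.572). On their other tested probe sets both genes differed the other way, UBE2E1 by 0.26 and NR1D2 by 0.10. None of the 2 UBE2E1 and 2 NR1D2 probe sets tested passed the threshold, and RPL15 is not analysed here. The next protein-coding gene on the other side of UBE2E1, UBE2E2, differed by 0.0068 (adjusted p = 0.839).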
